A study of Gallus gallus with 6 samples.

Results

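The genes described here encode proteins of the extracellular matrix and enzymes that build or cut it. They were chosen by name from the authors' table of called genes, which lists only genes called different between embryonic day (ED) 16 and ED19. Symbols of collagens, laminins, fibronectin, fibrillins, fibulins, tenascins, thrombospondins, matrilins, nidogens, perlecan and agrin were matched. So were those of small proteoglycans, versican, periostin, SPARC proteins, spondins, elastin, lysyl oxidases, MMP, TIMP, ADAMTS and EMILIN. This gave 76 of the 8469 genes of that table and of the 19219 genes counted. The stage difference chose these genes, so whether they pass a test of the same difference on the same libraries was largely fixed by the choice. Calls from the edgeR fit are given below as a description and not as evidence of a difference. A matrix gene that the authors did not call carries no symbol in the files and was not analysed here. One match, COL4A3BP, is named after a collagen but encodes a ceramide transfer protein inside the cell, so 75 of the genes belong to the matrix by name.

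The cells came from bursas of Hy-Line W-36 commercial layer embryos, for which no treatment is given, at ED16 (3 libraries, ED16_1 to ED16_3) and ED19 (3 libraries, ED19_4 to ED19_6). Each library was made from a separate pool of 52 to 55 bursas, cut up, made into single cells and centrifuged on a Histopaque density gradient. By the study's methods this step isolated lymphocytes, and by the labels it removed dead cells. Such gradients deplete granulocytes and red cells. The labels call the cells B-lymphocytes, and no sorting for B-cells is described, so other cells of the bursa or of tissue collected with it could be present. Poly-A RNA was sequenced, and reads were counted per gene.

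The extracellular matrix is the network of secreted proteins in which cells of a tissue sit. Fibrillar collagens give it strength and elastin gives it recoil, while basement membranes, sheets of collagen IV, laminin, nidogen and heparan sulfate proteoglycans, lie under epithelium and around vessels and muscle. Matrix metalloproteinases (MMP) and ADAMTS proteases cut these proteins, and TIMP proteins inhibit the proteases. In the bursa, lymphoid follicles form within an epithelium that rests on a basement membrane and is surrounded by mesenchyme, and most matrix proteins are made by fibroblasts, epithelium, endothelium and muscle rather than by lymphocytes.

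Library totals ranged from 27087661 to 34614652 counts on genes. The 5 of 12 listed B-cell markers that carry a symbol were present in every library, with a summed RPKM (reads scaled to gene length and to the counts of the library) of 207 to 224 at ED16 and 435 to 577 at ED19. The 7 of 14 listed mesenchyme markers that could be tested, and all 8 tested epithelial markers of 13 listed, were higher at ED16. Summed over all listed markers with a symbol, mesenchyme ranged from 10.3 to 18.8 RPKM at ED16 and from 0.370 to 0.645 at ED19, and epithelium from 137 to 299 and from 5.28 to 6.59. Kidney markers summed to 55.3 to 172 RPKM at ED16, with the highest value in ED16_1, and to 0.152 to 0.371 at ED19. Endothelial markers ranged from 7.26 to 10.2 RPKM and from 3.98 to 13.5, with 6 of 7 tested higher at ED16 and PECAM1 higher at ED19. PECAM1 alone averaged 8.48 of the mean endothelial sum of 8.92 RPKM at ED19, and 2.19 of 9.17 at ED16. Smooth muscle markers ranged from 12.9 to 19.8 and from 2.69 to 4.04, with 5 of 6 tested higher at ED16 and MYH11 higher at ED19. PDGFRB, TWIST1 and THY1 of mesenchyme, KDR, SOX18 and VWF of endothelium, and AGXT and PIPOX of kidney had no count at ED19. All tested markers of erythroid cells (6), T-cells (7) and thrombocytes (3) were higher at ED16 as well. Erythroid markers summed to 4009 to 5894 RPKM at ED16, the largest sum of the marker groups, and to 154 to 272 at ED19. T-cell markers summed to 281 to 361 at ED16 and to 136 to 228 at ED19. CD3D alone averaged 234 of the mean T-cell sum of 325 RPKM at ED16, and 148.5 of 172 at ED19. It was 1.59-fold higher at ED16, and the other T-cell markers were 2.695-fold (CD5) to 28.4-fold (CD8A) higher. Thrombocyte markers summed to 26.75 to 43.55 at ED16 and to 3.18 to 5.86 at ED19. The markers, like the matrix genes, have symbols only where the authors called them. Among the calls of the edgeR fit over all tested genes, 53.6% were higher at ED16. In bulk RNA, fewer cells of a type and less RNA per cell cannot be told apart.

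Nearly all of the matrix genes were higher at ED16 than at ED19, and a small group was higher at ED19. Of the 76 genes, 66 passed the filter on low counts. In the edgeR fit all 66 passed the threshold of 0.05 on the adjusted p, of which 58 were higher at ED16 and 8 at ED19. Across all 13923 tested genes, 35.6% were called higher at ED16 and 30.8% higher at ED19, but since the genes were chosen from called genes, nothing is read from the first count. Without ED16_1, and likewise without ED16_2, there were 55 called higher at ED16, again of 66 tested. Without ED19_6 there were 61, but 70 of the genes were tested in that fit. The median log2 fold change (ED16 over ED19) of the 66 genes was 4.13, and that of all tested genes was 0.06. With the tested genes that had no count at ED19 set to a lower bound, the median of the 66 was 4.04. Normalized counts of the stages were apart, with no overlap between libraries, for 57 of the 58 genes higher at ED16, MMP28 being the exception, and for all 8 genes higher at ED19. Across all tested genes, 38.4% were higher at ED16 without overlap and 33.1% were higher at ED19 without overlap. The 10 genes left out by the filter (ADAMTS15, ADAMTS20, COL21A1, COL24A1, COL8A1, COL9A1, EMILIN3, HSPG2, LOXL4 and MATN4) had more normalized counts in every ED16 library than in any ED19 library. Choosing from called genes favours large fold changes and stages that do not overlap. The size of the median and the counts without overlap are therefore descriptions, and nothing is read from them beside all tested genes.

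**Figure D1:**
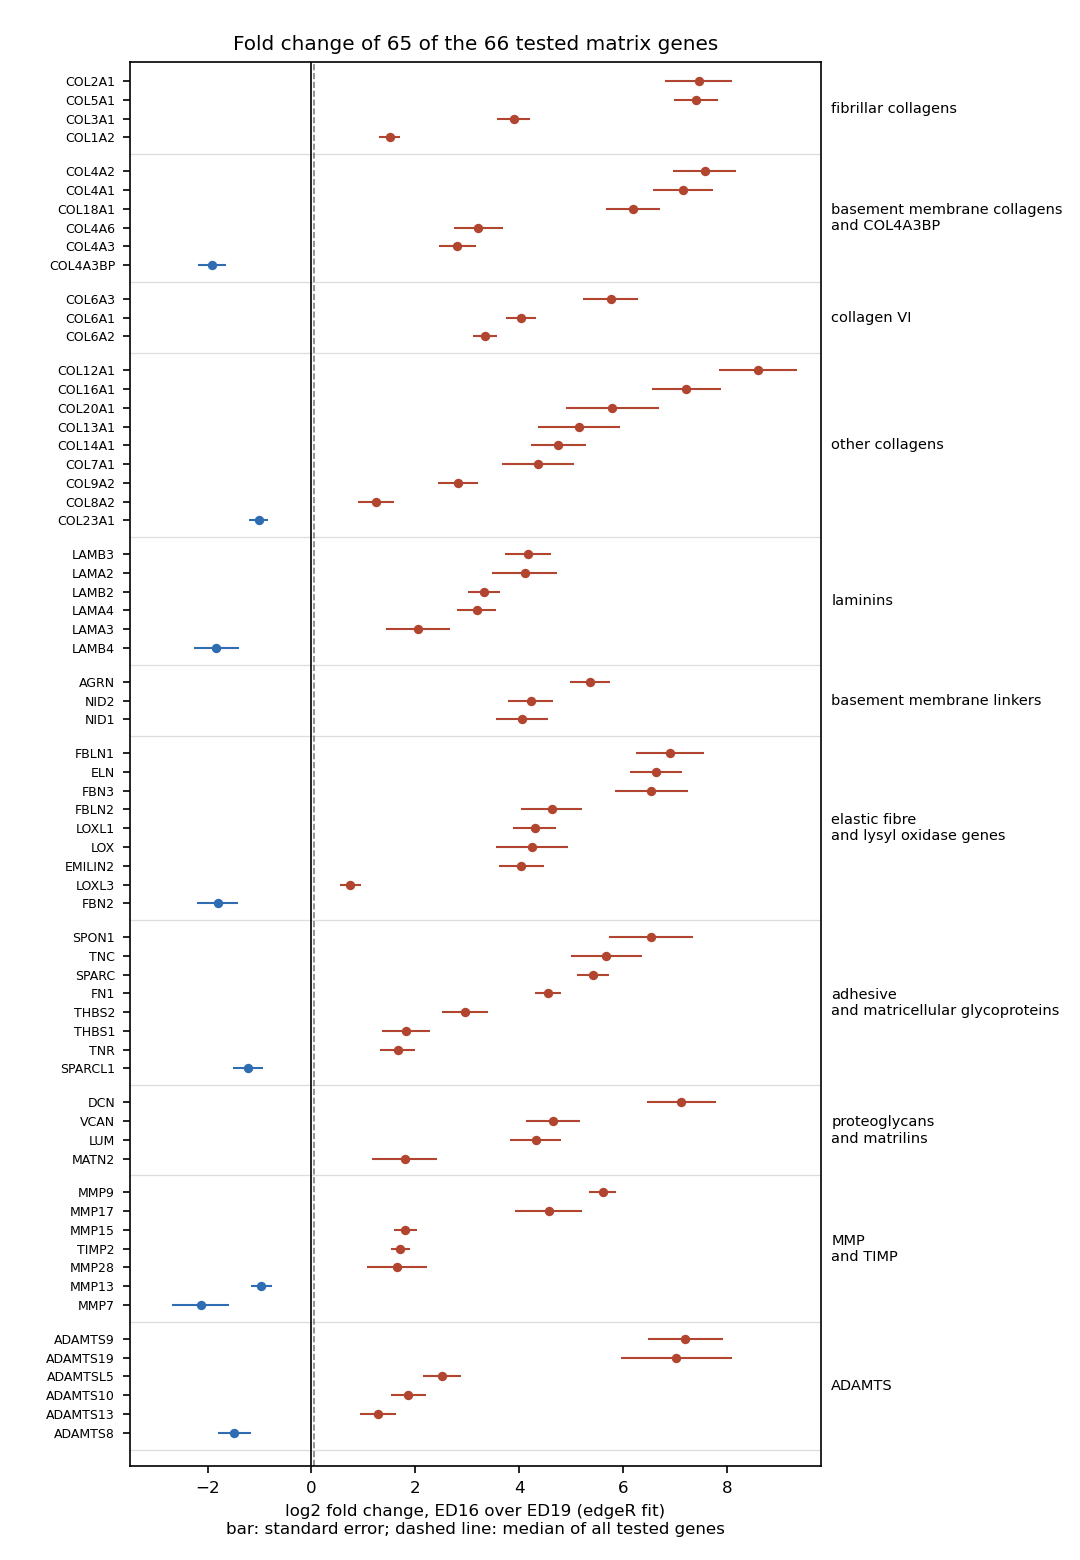
Log2 fold change of ED16 over ED19 for 65 of the 66 tested genes (horizontal axis), grouped by role, with bars for the standard error and a dashed line at the median of all tested genes. The 57 points right of zero reach 8.59 (COL12A1), and the 8 points left of zero reach -2.13 (MMP7). A value for a gene with few or no counts at ED19 depends on the fit.

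Most of these genes were low in the RNA of both stages. At ED16 the mean RPKM was above 1 for 29 genes and above 10 for 6, and at ED19 it was above 1 for 10 genes and above 10 for 3. The median over the 76 genes was 0.622 RPKM at ED16 and 0.0430 at ED19, against 5.05 and 7.47 over all called genes with a symbol. Genes of proteases and of their inhibitor made up most of the summed level. MMP15 made up 38.1% of the summed RPKM of the 76 genes at ED16 and 30.4% at ED19, and TIMP2 made up 32.7% and 28.2%. Summed over all 76 genes, RPKM came to 468 ± 61.0 (SD, n = 3) in the ED16 libraries and to 171 ± 3.67 (SD, n = 3) in the ED19 libraries. At ED19, 8 genes had no count in any library and a further 15 had 1 to 3 counts in total. Among the 66 genes those with the largest adjusted p were MATN2 and MMP28, with log2 fold changes of 1.79 (SE 0.63) and 1.65 (SE 0.58), and both missed the threshold in some fits with 1 library left out. Genes just outside the authors' table could not be named.

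**Figure D2:**
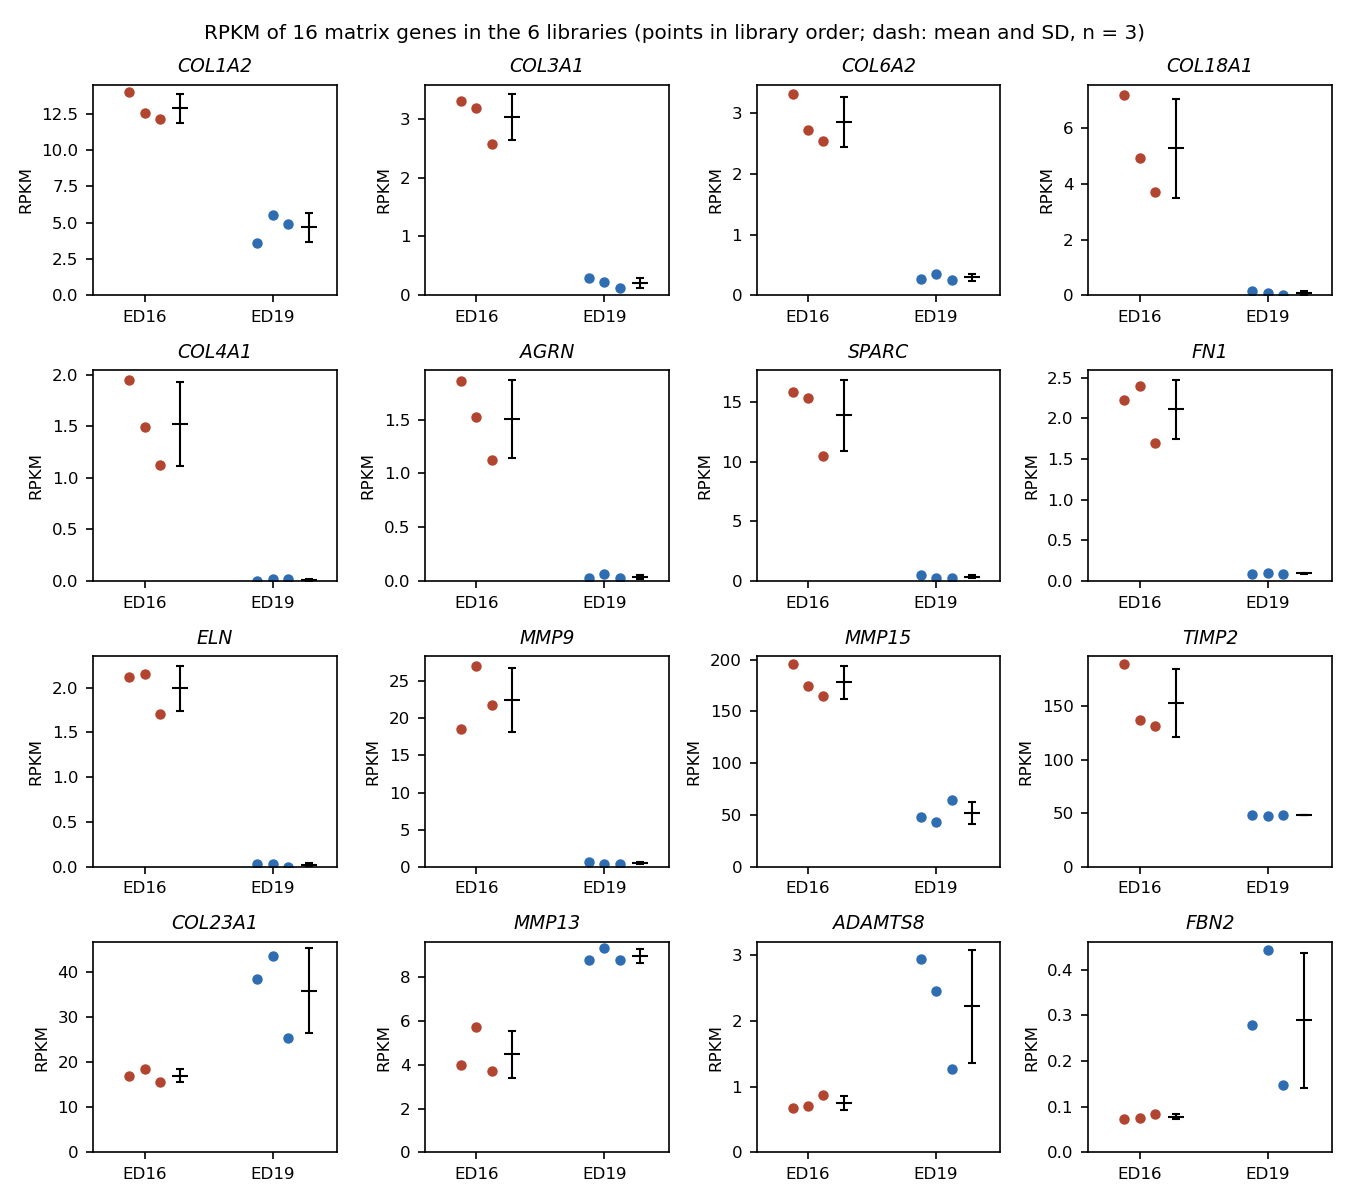
RPKM (vertical axes, each from 0) of 16 matrix genes in the 3 libraries of ED16 (red) and the 3 of ED19 (blue), with the mean and SD beside the points. In 12 panels the ED16 points lie above the ED19 points, and in the panels of COL23A1, MMP13, ADAMTS8 and FBN2 they lie below.

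Fibrillar collagens form the banded fibres of connective tissue. All 5 with a symbol (COL1A2, COL2A1, COL3A1, COL5A1 and COL24A1) had higher values at ED16, but they differed in how much remained at ED19. They were chosen from called genes, and 35.6% of all tested genes were called higher at ED16, so nothing is read from their shared direction. COL1A2, a chain of type I collagen, had the highest level, with an RPKM of 14.0, 12.5 and 12.1 at ED16 and 3.57, 5.51 and 4.89 at ED19. No other fibrillar collagen averaged above 1 RPKM at ED19, and the log2 fold change was 1.504 (SE 0.20). COL3A1, the chain of type III collagen that accompanies type I in soft tissue, had an RPKM of 3.31, 3.19 and 2.58 at ED16 and 0.284, 0.224 and 0.1196 at ED19. It was much nearer to 0 at ED19 than COL1A2 was, with a log2 fold change of 3.89 (SE 0.32). COL2A1, the main collagen of cartilage and of the notochord, had read counts of 488, 303 and 204 at ED16 against 0, 4 and 1 at ED19. In RPKM it stood at 3.39, 2.42 and 1.57 at ED16 and 0, 0.0333 and 0.00888 at ED19, with a log2 fold change of 7.45 (SE 0.64). COL5A1, which helps to start type I fibres, had 591 counts over the ED16 libraries and 3 over the ED19 libraries, a ratio of 190.3 (95% counting interval 64.8 to 926).

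Collagen VI forms beaded filaments near the surface of mesenchymal cells and is built from the chains of COL6A1, COL6A2 and COL6A3. All 3 genes, chosen from called genes, were higher at ED16 in every library, as were 38.4% of all tested genes. COL6A2 had an RPKM of 3.32, 2.72 and 2.53 at ED16 and 0.274, 0.356 and 0.246 at ED19, and COL6A1 one of 1.23, 1.29 and 1.25 at ED16 and 0.0660, 0.0904 and 0.0804 at ED19. Their log2 fold changes were 3.34 (SE 0.24) and 4.03 (SE 0.30). COL6A3, which encodes the largest chain, had an RPKM of 0.386, 0.328 and 0.381 at ED16 and 0.00907, 0.0103 and 0 at ED19 and a log2 fold change of 5.75 (SE 0.53). Normalized counts in ED16_1 were 0.956 (COL6A1), 1.28 (COL6A2) and 0.989 (COL6A3) times those in ED16_3, against a median of 1.28 over the matrix genes with enough counts.

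Basement membrane genes had some of the largest differences. COL18A1, whose protein carries heparan sulfate and is the source of endostatin, had an RPKM of 7.21, 4.93 and 3.70 at ED16 and 0.133, 0.0724 and 0.0140 at ED19. Every ED16 library was far above the ED19 libraries, and the log2 fold change was 6.19 (SE 0.52). COL4A1 and COL4A2 encode the chains of the collagen IV found in nearly all basement membranes. COL4A1 had read counts of 437, 292 and 228 at ED16 against 0, 3 and 3 at ED19, and COL4A2 had read counts of 332, 202 and 134 at ED16 against 1, 2 and 0 at ED19. In RPKM COL4A1 stood at 1.95, 1.499 and 1.13 at ED16 and 0, 0.0160 and 0.0171 at ED19, and the log2 fold changes of the pair were 7.14 and 7.56. COL4A3 and COL4A6, chains of collagen IV with a narrower distribution, kept more at ED19. COL4A3, a chain of the kidney glomerular basement membrane in mammals, had an RPKM of 1.08, 0.869 and 1.83 at ED16 and 0.189, 0.242 and 0.135 at ED19 and was highest in ED16_3, where COL4A1, COL4A2 and COL18A1 were lowest. The log2 fold changes of COL4A3 and COL4A6 were 2.81 (SE 0.36) and 3.21 (SE 0.47).

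The genes that link basement membrane networks moved in the same direction. AGRN, the heparan sulfate proteoglycan agrin, had an RPKM of 1.86, 1.52 and 1.13 at ED16 and 0.0283, 0.05995 and 0.0246 at ED19 and a log2 fold change of 5.36 (SE 0.38). NID1 and NID2 encode the nidogens, which bridge laminin and collagen IV. NID2 had an RPKM of 3.13, 2.30 and 1.65 at ED16 and 0.139, 0.0635 and 0.186 at ED19, and NID1 one of 1.32, 0.903 and 0.615 at ED16 and 0.0888, 0.0645 and 0.0197 at ED19. Their log2 fold changes were 4.22 (SE 0.44) and 4.05 (SE 0.49). HSPG2, the gene of perlecan, had read counts of 8, 3 and 4 at ED16 with none at ED19, too few for a test and at least 1.54-fold higher at ED16 against a floor of 3 counts per library.

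Laminins are trimers of an alpha, a beta and a gamma chain and are the polymer that starts a basement membrane. Of 7 laminin genes, 6 were higher at ED16 and LAMB4 was higher at ED19. Nothing is read from this split of called genes, beside 35.6% and 30.8% of all tested genes called in these directions. LAMB2, the beta chain of laminins around vessels, muscle and kidney glomeruli, had the highest level, with an RPKM of 2.61, 2.03 and 1.47 at ED16 and 0.190, 0.199 and 0.238 at ED19 and a log2 fold change of 3.32 (SE 0.30). LAMA3 and LAMB3 encode laminin chains found mostly under epithelium. LAMB3 had read counts of 70, 44 and 41 at ED16 against 4, 2 and 2 at ED19, and the log2 fold changes of LAMB3 and LAMA3 were 4.16 (SE 0.44) and 2.05 (SE 0.62). LAMA3 had read counts of 108, 99 and 55 at ED16 against 31, 30 and 2 at ED19, so the ED19 libraries differed from each other by more than 10 times, and ED19_6 was the low one. LAMA4, found mostly in vessels, and LAMA2, found mostly in muscle, had log2 fold changes of 3.18 (SE 0.38) and 4.10 (SE 0.63).

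Collagens of other classes were nearly absent at ED19, apart from COL23A1, COL8A2 and COL9A2. COL12A1, a collagen on the surface of type I fibres, had read counts of 57, 49 and 41 at ED16 with none at ED19, which puts it at least 15.4-fold higher at ED16. COL16A1, of the same class, had read counts of 225, 140 and 155 at ED16 against 0, 3 and 0 at ED19, a ratio of 168 (95% counting interval 57.0 to 815). In RPKM COL16A1 stood at 1.33, 0.9502 and 1.01 at ED16 and 0, 0.0212 and 0 at ED19. COL7A1, the anchoring fibril below epithelium, had 72 counts over the ED16 libraries and 3 over the ED19 libraries, a ratio of 23.2 (95% counting interval 7.62 to 115). COL8A2, a short-chain collagen, had an RPKM of 1.23, 0.825 and 0.689 at ED16 and 0.477, 0.346 and 0.370 at ED19, with no overlap of the stages and a log2 fold change of 1.24 (SE 0.34). COL9A2, a chain of the cartilage collagen IX, had read counts of 82, 57 and 80 at ED16 against 7, 11 and 11 at ED19. COL14A1, which also sits on fibres, had read counts of 114, 81 and 42 at ED16 against 2, 4 and 2 at ED19, with a log2 fold change of 4.75 (SE 0.54). COL13A1, a transmembrane collagen, and COL20A1 each had 1 count in all at ED19, for ratios of 47.3 (95% counting interval 8.11 to 1907) and 76.3 (95% counting interval 13.3 to 3052). For COL8A1, COL9A1 and COL21A1 no count was found at ED19, and they were at least 2.92-fold, 3.10-fold and 2.14-fold higher at ED16.

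Elastic fibres consist of elastin on a scaffold of fibrillins and fibulins, and lysyl oxidases cross-link elastin and collagen. Of the 9 tested genes of this group, 8 were higher at ED16. As 35.6% of all tested genes were called so and these were chosen from called genes, nothing is read from this count. ELN, the gene of elastin, had an RPKM of 2.12, 2.16 and 1.71 at ED16 and 0.0321, 0.0244 and 0 at ED19 and a log2 fold change of 6.62 (SE 0.50). LOXL1, a lysyl oxidase needed for elastic fibres in mice, had an RPKM of 4.75, 3.53 and 2.24 at ED16 and 0.203, 0.198 and 0.141 at ED19 and a log2 fold change of 4.29 (SE 0.42). LOXL3, another enzyme of the family, was the gene of the group that changed least, with an RPKM of 4.40, 4.34 and 3.25 at ED16 and 2.98, 2.23 and 2.17 at ED19 and a log2 fold change of 0.75 (SE 0.20). FBLN1 and FBLN2 encode fibulins, and FBLN1 had read counts of 54, 60 and 55 at ED16 against 0, 1 and 0 at ED19, a ratio of 163 (95% counting interval 28.9 to 6487). FBLN2, EMILIN2, a glycoprotein of elastic fibres, and LOX, the founding lysyl oxidase, had log2 fold changes of 4.62 (SE 0.59), 4.04 (SE 0.43) and 4.25 (SE 0.70). LOXL4 and EMILIN3, which were not tested in the main fit, had ratios of 46.4 (95% counting interval 7.93 to 1869) and 8.70 (95% counting interval 2.68 to 44.8). The fibrillins went in opposite directions. FBN3 had read counts of 70, 97 and 60 at ED16 against 0, 2 and 0 at ED19, while FBN2, the fibrillin of embryonic microfibrils in mammals, had read counts of 29, 26 and 30 at ED16 against 104, 145 and 45 at ED19. Fibrillin genes are long, and both were low per length: FBN2 had an RPKM of 0.0739, 0.0763 and 0.0849 at ED16 and 0.278, 0.443 and 0.147 at ED19.

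Adhesive and matricellular glycoproteins bind cells to matrix or change how they adhere. SPARC, a collagen-binding matricellular protein, was at the level of COL1A2 at ED16, with an RPKM of 15.9, 15.4 and 10.5 at ED16 and 0.478, 0.240 and 0.279 at ED19. The ED19 libraries were all below 1, and the log2 fold change was 5.41 (SE 0.31). FN1, the gene of fibronectin, had an RPKM of 2.23, 2.40 and 1.70 at ED16 and 0.0828, 0.103 and 0.0911 at ED19 and a log2 fold change of 4.55 (SE 0.25). SPARCL1, a relative of SPARC, went the other way, with an RPKM of 0.538, 0.522 and 0.644 at ED16 and 1.74, 1.20 and 1.19 at ED19. SPON1, a spondin, had read counts of 128, 59 and 45 at ED16 against 0, 2 and 0 at ED19, a ratio of 112 (95% counting interval 30.7 to 931). TNR, tenascin-R, known from the nervous system, had read counts of 87, 59 and 69 at ED16 against 33, 22 and 12 at ED19, with a log2 fold change of 1.66 (SE 0.34). TNC, tenascin-C of developing mesenchyme, had read counts of 237, 182 and 117 at ED16 against 9, 1 and 0 at ED19, with a log2 fold change of 5.67 (SE 0.69). Thrombospondins kept more: THBS1 and THBS2 had log2 fold changes of 1.82 (SE 0.46) and 2.95 (SE 0.44).

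Proteoglycan and matrilin genes were low at ED16 and, apart from MATN2, close to 0 at ED19. MATN4, another matrilin, had read counts of 17, 10 and 5 at ED16 against 0, 0 and 0 at ED19 and was not tested in the main fit. DCN, the gene of decorin, had read counts of 87, 50 and 60 at ED16 against 1, 0 and 0 at ED19, a ratio of 190.3 (95% counting interval 33.8 to 7555). In RPKM it stood at 2.25, 1.49 and 1.73 at ED16 and 0.0272, 0 and 0 at ED19. LUM, the gene of lumican, had an RPKM of 0.859, 0.876 and 1.19 at ED16 and 0.0740, 0.0169 and 0.0540 at ED19 and a log2 fold change of 4.32 (SE 0.49), and unlike most of the genes it was highest in ED16_3. MATN2, a matrilin, had an RPKM of 0.338, 0.618 and 0.287 at ED16 and 0.198, 0.155 and 0.0127 at ED19, where ED19_4 came close to the ED16 libraries. VCAN, the gene of the large proteoglycan versican, had read counts of 59, 47 and 34 at ED16 against 1, 3 and 1 at ED19, with a log2 fold change of 4.65 (SE 0.52).

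The MMP and TIMP genes held the highest levels and both directions. MMP15, a membrane-bound MMP, had an RPKM of 196, 174 and 164 at ED16 and 47.9, 43.5 and 64.3 at ED19. It averaged 178 ± 16.0 (SD, n = 3) in the ED16 libraries and 51.9 ± 10.9 in the ED19 libraries, the highest of the 76 genes at both stages, and its log2 fold change was 1.80 (SE 0.22). TIMP2, which inhibits MMPs and also helps MMP14 activate MMP2, had an RPKM of 189.7, 137 and 132 at ED16 and 48.5, 47.8 and 48.3 at ED19. The ED19 libraries were nearly equal, ED16_1 stood above the other ED16 libraries, and the log2 fold change was 1.71 (SE 0.18). MMP9, gelatinase B, had read counts of 1575, 1995 and 1662 at ED16 against 53, 28 and 25 at ED19. In RPKM it stood at 18.6, 27.1 and 21.8 at ED16 and 0.656, 0.395 and 0.377 at ED19, highest in ED16_2, and with a log2 fold change of 5.60 (SE 0.26) it was the largest difference among the proteases above 10 RPKM. MMP9 is abundant in granulocytes, macrophages and osteoclasts, and the values of genes known from such cells stand beside it, from cells that had passed the density gradient. The granulocyte receptor CSF3R had an RPKM of 4.68, 4.69 and 3.32 at ED16 and 0.382, 0.294 and 0.328 at ED19, and MARCO, a macrophage receptor, had 1.98, 3.13 and 1.75 at ED16 and 0.172, 0.0589 and 0.126 at ED19. The 6 of 12 listed granulocyte and macrophage markers with a symbol summed to 192 to 211 RPKM at ED16 and to 283 to 289 at ED19. Of these 5 were higher at ED16, and SPI1, which B-cells express too, was higher at ED19. SPI1 made up most of the sum, with a mean of 143 RPKM at ED16 and 271 at ED19. CSF3R and MARCO had the largest log2 fold changes of the list, 3.70 and 4.27. Those of CSF1R, C1QA and C1QB were 1.77, 2.09 and 1.89. The part of such cells in the MMP9 values was not tested. MMP17, anchored to the membrane, had read counts of 283, 109 and 88 at ED16 against 7, 11 and 1 at ED19, and its log2 fold change was 4.57 (SE 0.65). MMP28, the last of the MMP genes, had read counts of 47, 28 and 14 at ED16 against 9, 15 and 3 at ED19, where the libraries of the stages overlapped.

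ADAMTS proteases cut proteoglycans and procollagens. Of 8 genes with such names 6 passed the filter, of which 5 were higher at ED16. This count too is a description, as 35.6% of all tested genes were called higher at ED16. ADAMTSL5, an ADAMTS-like protein without the protease domain, had an RPKM of 4.12, 2.94 and 2.51 at ED16 and 0.692, 0.370 and 0.657 at ED19 and a log2 fold change of 2.51 (SE 0.36). ADAMTS10, which binds fibrillin in mammals, had an RPKM of 1.995, 2.46 and 1.19 at ED16 and 0.655, 0.630 and 0.328 at ED19 and a log2 fold change of 1.86 (SE 0.34). ADAMTS9, which cuts versican, had read counts of 104, 55 and 51 at ED16 and 1 count at ED19, a ratio of 203 (95% counting interval 36.0 to 8051). ADAMTS19, with no count at ED19, was at least 5.18-fold higher at ED16. ADAMTS13, the enzyme that cuts von Willebrand factor in plasma, had a log2 fold change of 1.28 (SE 0.35).

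**Figure D3:**
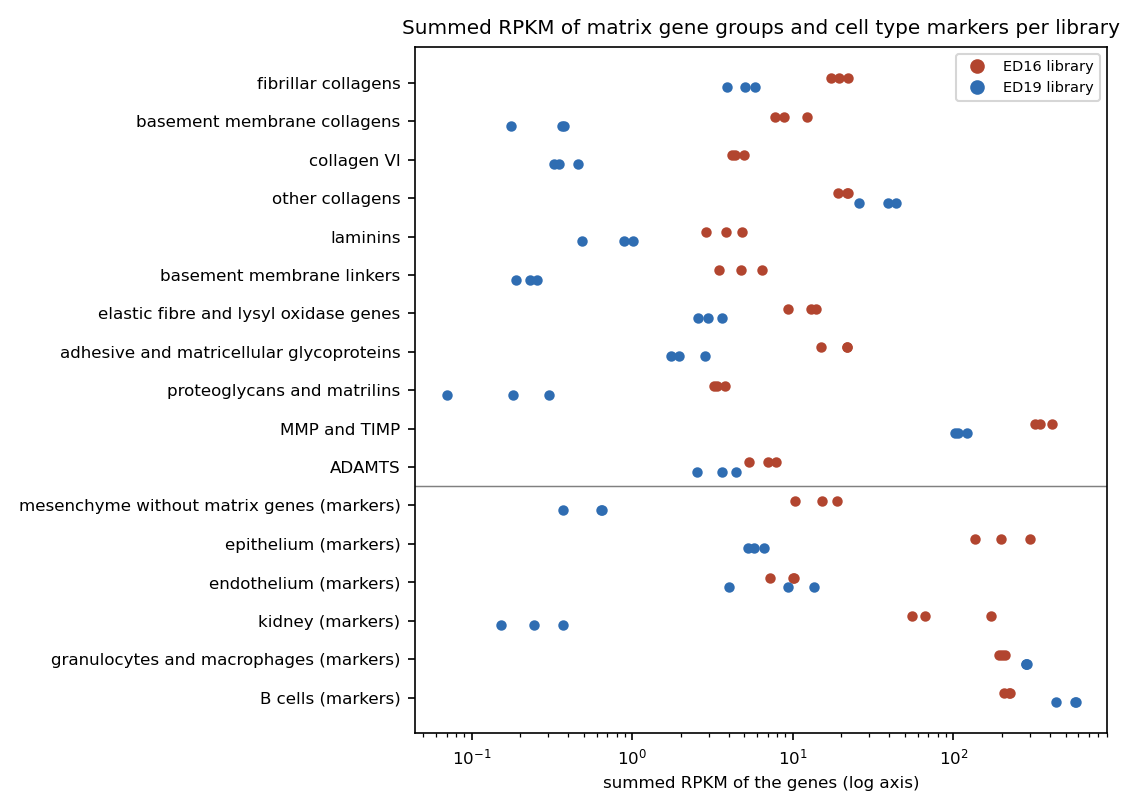
Summed RPKM (log axis) of each role group of matrix genes and, below the line, of marker genes of 6 cell types, in each ED16 library (red) and ED19 library (blue). COL4A3BP is left out of the basement membrane collagens. The other collagens are higher at ED19, where COL23A1 makes up nearly all of their sum, and the mesenchyme markers are at 10.3 to 18.8 at ED16 and at 0.370 to 0.645 at ED19.

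The 8 genes higher at ED19 were COL23A1, MMP13, ADAMTS8, MMP7, LAMB4, FBN2, SPARCL1 and COL4A3BP. COL23A1, a transmembrane collagen, was the most abundant of them. In RPKM it stood at 16.9, 18.4 and 15.7 at ED16 and 38.5, 43.5 and 25.4 at ED19, and it averaged 17.0 ± 1.39 (SD, n = 3) in the ED16 libraries and 35.8 ± 9.39 in the ED19 libraries. The log2 fold change was -1.01 (SE 0.18). At ED19 only MMP15 and TIMP2 had a higher RPKM among the 76 genes. MMP13, a collagenase, had an RPKM of 4.0, 5.70 and 3.73 at ED16 and 8.78, 9.32 and 8.80 at ED19 and a log2 fold change of -0.96 (SE 0.19). All 3 ED19 libraries of MMP13 lay close together. ADAMTS8 had an RPKM of 0.682, 0.699 and 0.881 at ED16 and 2.94, 2.46 and 1.27 at ED19 and a log2 fold change of -1.48 (SE 0.32). MMP7, matrilysin, had read counts of 4, 5 and 9 at ED16 against 41, 30 and 10 at ED19, an RPKM of 0.135, 0.194 and 0.337 at ED16 and 1.45, 1.21 and 0.431 at ED19 and a log2 fold change of -2.13 (SE 0.55). In both ADAMTS8 and MMP7, ED19_6 was the lowest ED19 library. LAMB4, a beta chain of laminin, had an RPKM of 0.0892, 0.163 and 0.105 at ED16 and 0.606, 0.521 and 0.208 at ED19, and its log2 fold change was -1.83 (SE 0.43). FBN2 and SPARCL1 had log2 fold changes of -1.81 (SE 0.40) and -1.22 (SE 0.29). COL4A3BP, the ceramide transfer gene, had an RPKM of 1.70, 2.29 and 2.18 at ED16 and 9.32, 9.84 and 5.32 at ED19 and a log2 fold change of -1.92 (SE 0.27).

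For these genes the ED19 libraries differed. ED19_6 was the lowest ED19 library in normalized counts for 6 of the 8 genes. Its value divided by the mean of ED19_4 and ED19_5 had a median of 0.595 over the 8 genes, from 0.376 for MMP7 to 1.13 for MMP13. Over the 4260 genes called higher at ED19 with a mean of at least 20 counts, the median of the same ratio was 0.851. ED19_6 was the lowest ED19 library for 2656 of those 4260 genes. The ratio had a median of 0.843 over the 5 B-cell markers, and ED19_6 was the lowest for 4 of them. Among genes higher at ED16, the same library was low for LAMA3 (0.0866) and THBS1 (0.254) and high for ADAMTS13 (1.93) and MMP15 (1.63).

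The ED16 libraries also differed from each other. The authors' calls depend on the spread within a stage, so the choice of genes used this spread too, and the values are a description. Among the 62 genes with a mean of at least 20 counts at ED16, normalized counts were highest in ED16_1 for 39 (62.9%), in ED16_2 for 14 and in ED16_3 for 9. With the same limit on counts, ED16_1 was the highest for 34.1% of 13047 tested genes and for 59.5% of 4763 genes called higher at ED16. It was the highest for 39 of the 55 matrix genes higher at ED16 with enough counts (70.9%). The ratio of ED16_1 to ED16_3 had a median of 1.40 over those 55 genes and of 1.24 over those 4763 genes. By group, its median was 1.85 for AGRN, NID1 and NID2, 1.61 for the laminins and 0.989 for collagen VI. Single genes reached 3.15 (COL20A1), 2.95 (MMP28), 2.82 (MMP17), 2.50 (SPON1) and 2.38 (COL14A1). At the other end were COL4A3 (0.574), LUM (0.705), ADAMTS8 (0.754) and COL4A3BP (0.761). Markers of other cells differed in the same libraries. The median ratio was 3.35 for 7 kidney markers, 2.16 for 8 epithelial markers, 1.59 for 7 mesenchyme markers and 0.846 for 5 B-cell markers. It was 1.66 for 7 T-cell markers, 1.60 for 3 thrombocyte markers, 1.52 for 5 erythroid markers and 1.42 for 7 endothelial markers. For 5 smooth muscle markers it was 1.23, and for 6 granulocyte and macrophage markers 1.21. A low ED16_3 also raises this ratio. T-cell markers were highest in ED16_2 for 6 of 7 and lowest in ED16_3 for all 7. Granulocyte and macrophage markers were highest in ED16_2 for 3 of 6 and in ED16_1 for 2, and lowest in ED16_3 for 5. Erythroid markers were highest in ED16_1 for 4 of 5, and thrombocyte markers for 2 of 3. With single libraries there is no test of these ratios, and the part of any of these cell types in the matrix values was not tested.

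**Figure D4:**
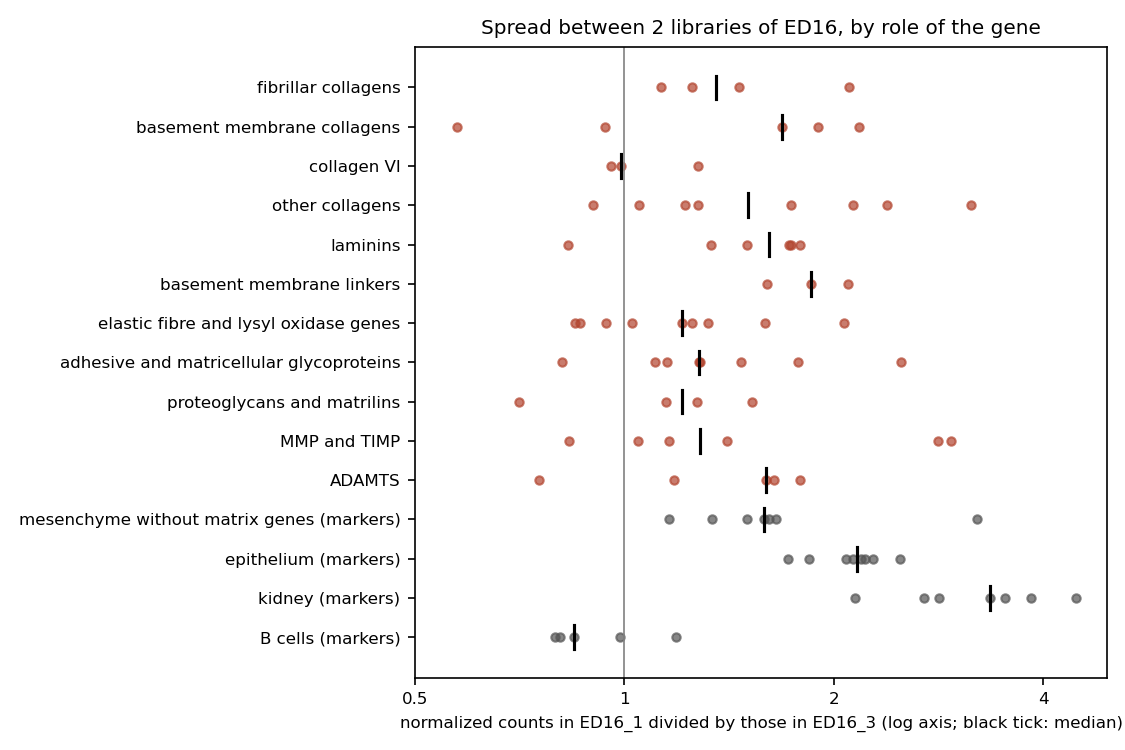
Normalized counts in ED16_1 divided by those in ED16_3 (log axis) for matrix genes with a mean of at least 20 counts at ED16, by role (red), and for tested markers of 4 cell types with as many counts (grey), with black ticks at the medians. COL4A3BP is left out. Collagen VI centres at 0.989, the basement membrane linkers at 1.85, and the kidney markers at 3.35.

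Some of the genes neighbour each other in the genome. By RefSeq gene order in the GRCg7b assembly, which is not the assembly used for counting, 4 pairs of the genes had no other protein-coding gene between them. COL4A1 and COL4A2, which share a promoter region in mammals, had log2 fold changes of 7.14 and 7.56. COL6A1 and COL6A2 had 4.03 and 3.34, and LUM and DCN had 4.32 and 7.12. ADAMTS8 and ADAMTS15 differed in direction: ADAMTS8 was higher at ED19, while ADAMTS15 had read counts of 16, 15 and 6 at ED16 against 0, 0 and 0 at ED19. The counting is not stated to use strand, so reads where neighbours overlap could not be assigned to one of them.

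Other genes of matrix biology were listed by symbol and are given beside the matrix genes. Their symbols also exist only in the table of called genes, so these counts are descriptions too. Among the calls over all tested genes, 53.6% were higher at ED16, and nothing is read from the list counts beside that share. Of 36 symbols of collagen folding, modification and secretion 15 were present and 14 tested, with 11 higher at ED16 and 3 at ED19. PPIB, a prolyl isomerase of the endoplasmic reticulum used by many secreted proteins, had an RPKM of 1721, 1423 and 1642 at ED16 and 394, 342 and 665 at ED19. Its log2 fold change was 1.79 (SE 0.31). COLGALT1, which adds galactose to collagen, had an RPKM of 29.5, 27.5 and 24.6 at ED16 and 19.4, 14.4 and 16.1 at ED19 and a log2 fold change of 0.76 (SE 0.18), which was 0.00 (edgeR adjusted p = 0.99) once libraries were corrected for gene length. SERPINH1, the collagen chaperone HSP47, and FKBP10, another collagen chaperone, had RPKM values of 3.55, 2.24 and 1.06 at ED16 and 0.101, 0.126 and 0.0224 at ED19 and of 3.30, 3.40 and 2.58 at ED16 and 0.155, 0.0784 and 0.188 at ED19, far below PPIB. Their log2 fold changes were 4.80 (SE 0.60) and 4.49 (SE 0.36). P4HA1, a prolyl hydroxylase subunit, was higher at ED19, with an RPKM of 11.01, 12.3 and 14.2 at ED16 and 32.0, 30.2 and 18.8 at ED19 and a log2 fold change of -1.04 (SE 0.19). TLL2 and CREB3L2 were the others higher at ED19.

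Receptors for matrix proteins were divided between the stages. Of 34 listed symbols 20 were present and 18 tested, 10 higher at ED16 and 8 at ED19. Over all tested genes 53.6% of the calls were higher at ED16, so nothing is read from this split. The most abundant receptors were higher at ED19. CD47, a receptor of thrombospondin-1, had an RPKM of 42.4, 54.9 and 56.9 at ED16 and 163, 177 and 84.3 at ED19 and a log2 fold change of -1.39 (SE 0.24). CD44, the hyaluronan receptor, had an RPKM of 32.2, 39.4 and 34.9 at ED16 and 69.9, 75.2 and 60.9 at ED19 and a log2 fold change of -0.90 (SE 0.14). ITGB1, the integrin subunit shared by most collagen, laminin and fibronectin receptors, had an RPKM of 24.6, 27.6 and 24.4 at ED16 and 49.0, 45.7 and 34.4 at ED19 and a log2 fold change of -0.70 (SE 0.13). The alpha subunits ITGA2, ITGA4, ITGA6 and ITGAV were also higher at ED19. Their log2 fold changes were -2.62 (SE 0.41), -1.65 (SE 0.31), -1.78 (SE 0.25) and -2.30 (SE 0.52). ED19_6 had the lowest ED19 value for each of these subunits. For ITGAV it came close to the ED16 libraries, with an RPKM of 1.31, 1.72 and 0.973 at ED16 and 9.69, 9.535 and 1.82 at ED19. Of the other integrin genes tested, 6 were higher at ED16: ITGA2B and ITGB3, which together form the fibrinogen receptor of thrombocytes, ITGB4, ITGB5, ITGB6 and ITGB8. Their log2 fold changes were 5.02, 4.14, 1.58, 4.21, 4.50 and 2.98. DAG1, the laminin receptor dystroglycan, was higher at ED16, with an RPKM of 16.4, 11.2 and 8.34 at ED16 and 1.81, 1.92 and 1.00 at ED19 and a log2 fold change of 2.99 (SE 0.30).

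All 31 other matrix components with a symbol, of 63 listed, were higher at ED16, as were 53.6% of the calls over all tested genes. SPP1, osteopontin, had an RPKM of 10.03, 6.92 and 9.18 at ED16 and 0.0537, 0.0920 and 0.0654 at ED19 and a log2 fold change of 6.95 (SE 0.38). TGFBI, a collagen-binding protein induced by TGF-beta, had an RPKM of 9.23, 10.8 and 6.73 at ED16 and 1.69, 1.48 and 1.17 at ED19 and a log2 fold change of 2.67 (SE 0.22). MGP, matrix Gla protein, had an RPKM of 13.8, 6.91 and 4.28 at ED16 and 0.0450, 0.154 and 0.0548 at ED19 and a log2 fold change of 6.59 (SE 0.67). MGP and SPP1 were highest in ED16_1 and TGFBI in ED16_2. In normalized counts, ED16_1 was the highest for all mesenchyme, epithelial and kidney markers with enough counts. It was also the highest for 59.5% of all genes called higher at ED16 with enough counts. The part of such cells in the MGP values was not tested. TINAG and TINAGL1, of which the first is known from the basement membrane of kidney tubules, had RPKM values of 8.26, 3.12 and 2.11 at ED16 and 0, 0 and 0 at ED19 and of 6.84, 3.98 and 3.11 at ED16 and 0, 0 and 0 at ED19.

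Other enzymes that degrade matrix, and their inhibitors, went both ways. All 13 with a symbol, of 27 listed, were tested, 8 higher at ED16 and 5 at ED19. Nothing is read from this split, since 53.6% of the calls over all tested genes were higher at ED16. CTSK, cathepsin K, a collagen-degrading protease of osteoclasts, had an RPKM of 35.7, 58.0 and 78.9 at ED16 and 1.73, 1.12 and 1.26 at ED19. It was highest in ED16_3, the opposite of most matrix genes, with a log2 fold change of 5.44 (SE 0.35). BSG, an inducer of MMPs also called CD147, and CTSB, cathepsin B, had RPKM values of 111, 107 and 95.4 at ED16 and 54.2, 53.8 and 53.6 at ED19 and of 61.3, 51.5 and 48.4 at ED16 and 23.2, 21.4 and 20.7 at ED19. Their log2 fold changes were 1.00 (SE 0.14) and 1.35 (SE 0.15). ADAM10 and ADAM17, membrane sheddases, were higher at ED19, and their log2 fold changes were -1.40 (SE 0.29) and -0.69 (SE 0.21). Of 10 symbols of TGF-beta signalling, a pathway that induces many matrix genes, 5 were present and tested, 3 higher at ED16 and 2 at ED19. TGFB3 had an RPKM of 19.0, 19.1 and 14.3 at ED16 and 9.37, 9.42 and 9.11 at ED19 and a log2 fold change of 0.95 (SE 0.17). TGFBR2, the type II receptor, had an RPKM of 21.1, 25.8 and 28.4 at ED16 and 99.2, 100.4 and 41.8 at ED19 and a log2 fold change of -1.60 (SE 0.28). SMAD3, a transducer of the signal, had an RPKM of 8.98, 12.3 and 10.2 at ED16 and 21.1, 21.6 and 11.5 at ED19 and a log2 fold change of -0.71 (SE 0.21), and its adjusted p-value from edgeR was 0.081 with the gene length correction, 0.065 with upper-quartile normalization, 0.070 without ED16_1 and 0.050 without ED19_5.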

How the data were processed

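The authors aligned reads to galGal4 with TopHat2 2.0.12 and deposited raw counts per gene from HTSeq. They also deposited RPKM values, and a table of genes called with DESeq that holds a signal per stage (mean normalized count), fold changes and p-values. From that table only gene names were used.

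Counts were analysed in edgeR 4.0.16 (R 4.3.3) with filterByExpr, TMM normalization, the quasi-likelihood F test over all 13923 genes kept, p-values adjusted by Benjamini-Hochberg and called below 0.05. The standard error (SE) is the log2 fold change divided by the root of F. Lower bounds use a floor of 3 counts per library. Ratios with 1 to 3 counts at ED19 carry exact conditional binomial intervals (95%, scipy 1.17.1). Intervals and floors cover counting error only, and reads are not independent molecules. The main fit and some of the alternatives were run on simulated data with 200 changed genes. In the real data 9240 genes were called, so the simulation does not test normalization at such a share of changes.

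By rule, genes were named with every library where they were the 3 with the highest mean RPKM of a role group or list or were matrix genes higher at ED19, and the 2 with the largest adjusted p were named. Of these genes 1 is not reported here. Others were named after their values were seen. The members and lists were chosen with earlier results of these data known. Alternatives were upper-quartile normalization, other filters, a length correction (loess, span 0.5), leaving out libraries, DESeq2 1.42.0, limma 3.58.1 on log2(RPKM + 1) or log2(RPKM + 0.1), and stricter thresholds. All 76 symbols matched RefSeq symbols or synonyms. No sequences were used here.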

Additional observations from a re-analysis of the deposited data

How the results depend on the processing

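The signs of all tested matrix genes were the same under every alternative run. Only the filter of at least 10 counts in every library moved the number of them called higher at ED16 by over 1.5 times, to 16, and it left 23 genes because it removes those near 0 at ED19. The same filter gave 5 genes higher at ED16 for collagen folding, 6 for matrix receptors and 4 for other matrix components. With at least 2-fold, 2502 of all genes and 1 other matrix-degrading gene were called higher at ED19. For TGF-beta signalling 1 gene was called higher at ED19 with the length correction, upper-quartile normalization, an adjusted p below 0.01 or at least 2-fold, and from 1 to 2 when single libraries were left out (1 without ED16_1 or ED19_5). The other matrix-degrading genes called higher at ED19 then numbered 3 to 5, with 3 without ED19_5. With the length correction or upper-quartile normalization they numbered 4. Leaving out each library gave 55 to 62 matrix genes called higher at ED16 and 8 higher at ED19, of 66 or 70 tested. Limma on log2(RPKM + 1) called 54 and 8. DESeq2, and edgeR without the filter on low counts, each tested all 76 genes and called 68 and 8. Upper-quartile normalization moved the median of all genes, as log2 fold change, from 0.06 to 0.26 and that of the matrix genes to 4.33. The median of the matrix genes depended on the setting. It was 1.78 over the 23 genes with at least 10 counts in every library. With limma it was 2.08 on log2(RPKM + 0.1) and 0.569 on log2(RPKM + 1). Under the other settings it lay between 3.98 and 4.36. MATN2 missed the threshold without ED16_1, ED16_2 or ED19_5 (adjusted p = 0.059, 0.13 and 0.051 from edgeR). MMP28 missed it without ED16_1, ED16_2, ED19_4 or ED19_6 (adjusted p from 0.061 to 0.13 from edgeR) and with limma on log2(RPKM + 1) (adjusted p = 0.056). COLGALT1 missed it with the length correction, and SMAD3 under the settings given with its value. Other genes, not named here, also missed it under some settings, among them without ED16_1 and with limma on log2(RPKM + 1). The causes were not tested. No paired analysis was possible because the stages share no replicate number. Genes with few counts at ED19 have fold changes that are uncertain in size, and GC content was not corrected for. By the study's report, every ED16 library had a higher GC content and a lower share of mapped reads than every ED19 library. The average RNA integrity score was also lower at ED16. These differences run with stage, so their part in the stage differences cannot be told apart.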
